A study of Danio rerio with 9 samples.

Results

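The genes described here supply phosphate to forming bone mineral, trim the proteins around it or move phosphate and calcium across membranes. They were chosen by name, as known genes of mineral formation; no level enters the rule, but earlier results of these data were known when it was made: phospho1, smpd3, phex, slc20a1a, slc20a1b, slc20a2, slc8a4a, slc8a4b and stc1. These 9 names matched 10 of the 32266 Ensembl gene IDs in the count files, of which 26433 carry a gene name in the name table. The table gives the name SLC20A1 to ENSDARG00000010641 and to ENSDARG00000020114 without saying which is slc20a1a and which slc20a1b, and the name STC1 to ENSDARG00000003303 and to ENSDARG00000058476, so these IDs are told apart by number. Of the 10 IDs, 9 passed the filter on low counts and were tested, and slc8a4a did not.

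Bone mineral is calcium phosphate, and its first crystals form where phosphate is released locally inside and around small vesicles shed by the mineralizing cell. Smpd3, a neutral sphingomyelinase, frees phosphocholine from the membrane lipid sphingomyelin, and Phospho1 is the phosphatase that takes phosphate off phosphocholine. In humans, loss of the endopeptidase PHEX causes inherited phosphate wasting with soft bone, and in teleosts mineral is laid down directly in the notochord sheath before vertebral bone surrounds it.

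The libraries were RNA-seq libraries of zebrafish cells taken at 13 days after fertilization. The series describes them as notochord sheath cells, the layer around the core of the embryonic axial rod. Whether every population consisted of sheath cells was not tested, and levels of cell type markers are given below. Fluorescence-activated cell sorting gave an entpd5a+, a double-positive (col9a2 and entpd5a) and a col9a2+ population, with 3 libraries each. Entpd5a is an enzyme that hydrolyses nucleoside diphosphates and is needed for bone mineralization in zebrafish, and col9a2 encodes a chain of cartilage collagen IX. All fish were of strain EK, and the series describes them as transgenic although the genotype is labelled wild type; the labels name neither the reporter constructs nor the number of fish per sort. Nothing states whether the 3 libraries of a population came from separate fish, pools or sorts, so every p-value measures the spread between these libraries, which may be technical.

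The libraries held between 39955994 and 81471212 counts. The 4 deeper ones (entpd5a+ 2 and 3, double-positive 3 and col9a2+ 3) each held at least 67788360 counts and had the heat shock gene hsp70l at 17960 CPM or more, whereas the 5 shallower ones held at most 46708240 counts, with hsp70l at 908.9 CPM or less. CPM are counts scaled to the size and composition of each library. ENTPD5 stood at 5678, 3955 and 3142 CPM in entpd5a+, 10370, 18680 and 13080 CPM in double-positive and 253.1, 452.2 and 128.9 CPM in col9a2+ libraries. COL9A2 stood at 429.1, 73.1 and 64.7 CPM in entpd5a+, 811.1, 1580 and 1426 CPM in double-positive and 7738, 11560 and 9398 CPM in col9a2+ libraries, so the levels of both sort genes followed the labels. The notochord transcription factor gene tbxta was detected in every library, at 115.4 to 804.7 CPM in entpd5a+, 1389 to 4465 CPM in double-positive and 926.2 to 2147 CPM in col9a2+ libraries, while noto, another notochord gene, had 0 counts throughout.

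Differences below are log2 fold changes ± standard error from edgeR's quasi-likelihood test, fitted to all 9 libraries and all 19039 genes that passed the filter, and a gene is called when its Benjamini-Hochberg adjusted p is under 0.05. Library values are given in the order 1, 2, 3, and means as mean ± SD (n = 3 libraries). CPM are not scaled by transcript length, so levels are compared between populations and not between genes. In bulk libraries of sorted cells, fewer cells that express a gene and less RNA of it per cell cannot be told apart. Not every difference of the sort genes was called by this test. COL9A2 did not pass in double-positive against col9a2+ (adjusted p = 0.0787) or entpd5a+ against double-positive cells (adjusted p = 0.0683). ENTPD5 did not pass in entpd5a+ against double-positive cells (log2 -1.72 ± 0.58, adjusted p = 0.122).

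Of the 10 IDs, 9 fell into 3 patterns. Smpd3, phospho1, phex and slc8a4b had means that were high in entpd5a+, lower in double-positive and lowest in col9a2+ cells. Of these, slc8a4b alone was called in double-positive against col9a2+ cells by the edgeR test above, whereas DESeq2, another test, also called smpd3, phospho1 and phex there. DESeq2 called more genes of every kind in that comparison, 2026 against 674 by edgeR. ENSDARG00000020114, 1 of the slc20a1 copies, was high in double-positive cells alone. By the same edgeR test the other slc20a1 copy, slc20a2 and the STC1 IDs showed no called difference between any pair of populations. Slc8a4a, the tenth, was hardly detected.

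**Figure D1:**
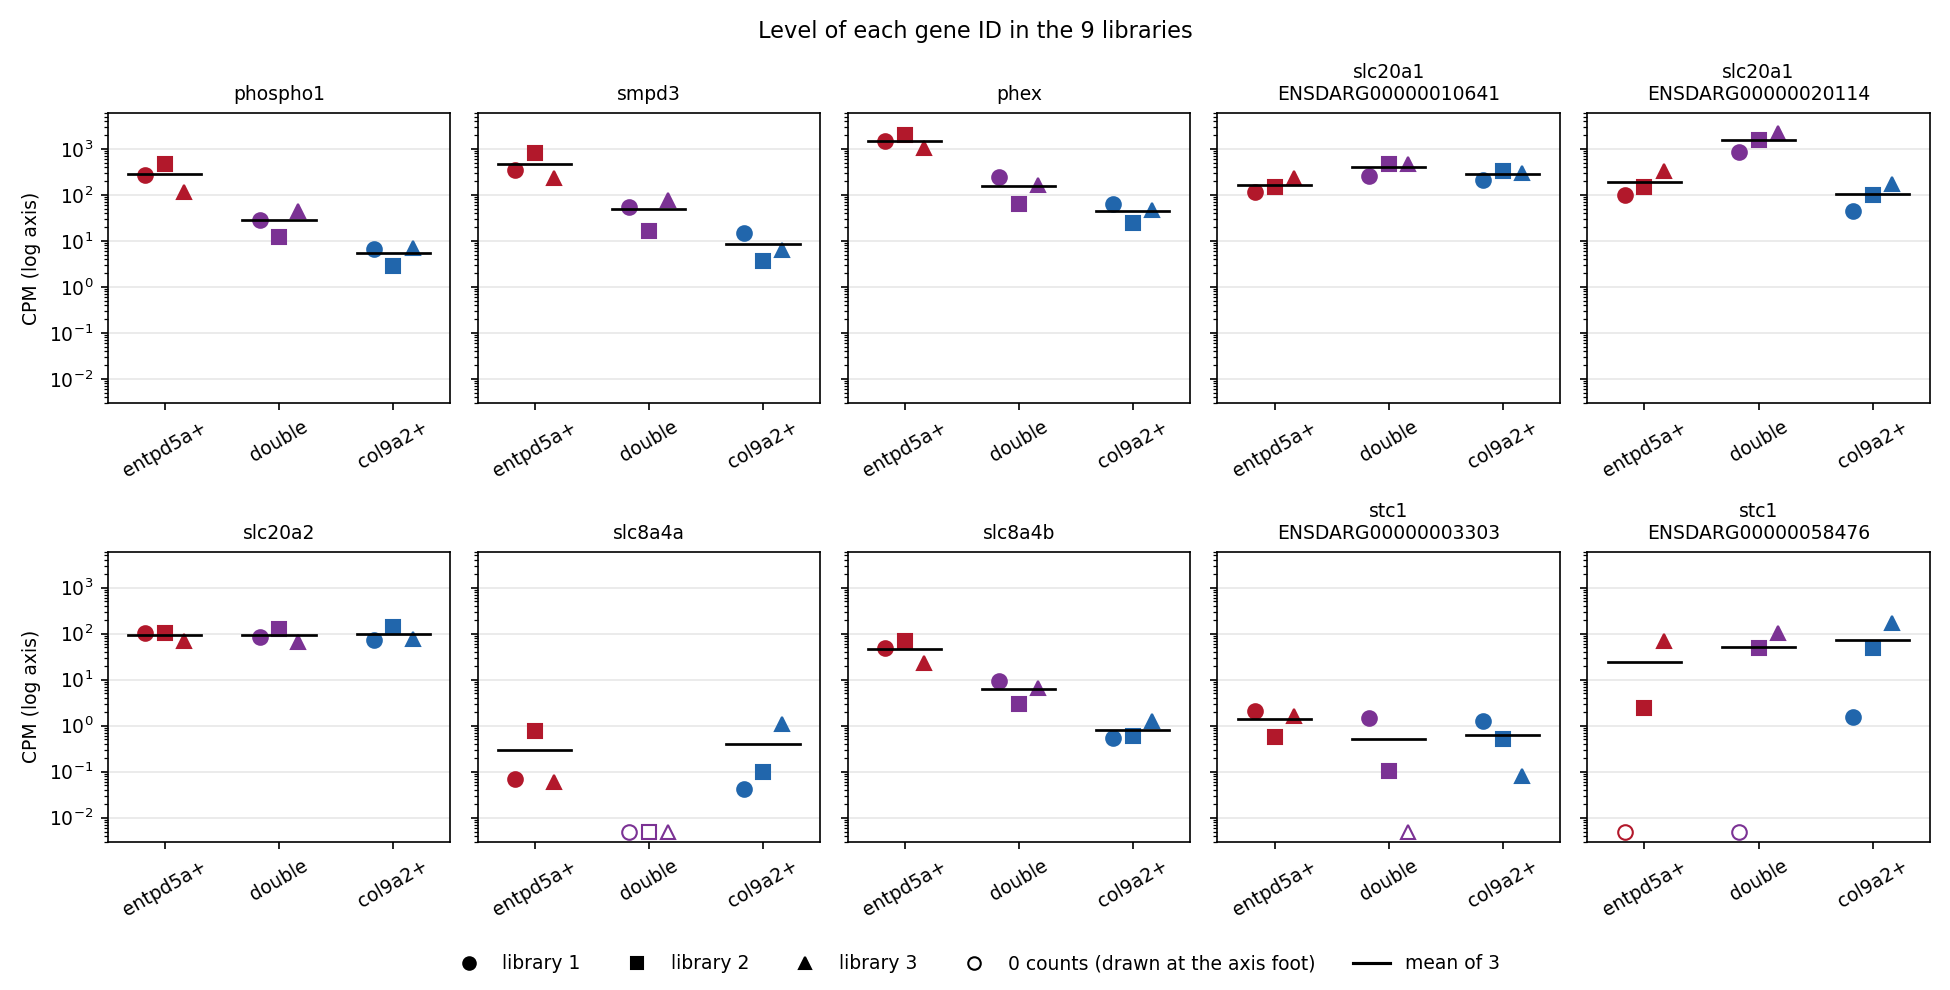
CPM of the 10 gene IDs (log axis) in each library of the entpd5a+, double-positive and col9a2+ populations, with the mean of 3 as a bar and open symbols for libraries with 0 counts. Means of smpd3, phospho1, phex and slc8a4b step down from left to right, and the slc20a1 copy ENSDARG00000020114 peaks in the double-positive libraries at 862.3 to 2220 CPM.

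Smpd3 (ENSDARG00000098226), which releases phosphocholine, had 339.7, 804.5 and 234.6 CPM in entpd5a+, 54.4, 16.2 and 77.3 CPM in double-positive and 14.8, 3.73 and 6.45 CPM in col9a2+ libraries. The lowest entpd5a+ library stood above the highest double-positive library, and the lowest double-positive library above the highest col9a2+ library. Means were 459.6 ± 303 CPM in entpd5a+, 49.3 ± 30.9 CPM in double-positive and 8.34 ± 5.79 CPM in col9a2+ cells. The gene was 55.1-fold higher in entpd5a+ than in col9a2+ cells (log2 5.78 ± 0.85, adjusted p = 0.00575), and this call held with every single library left out, although the log2 fold change was 5.11 without entpd5a+ library 2 and 6.49 without col9a2+ library 1. It was 9.32-fold higher in entpd5a+ than in double-positive cells (log2 3.22 ± 0.75, adjusted p = 0.033). That second call was lost without entpd5a+ library 2 (log2 2.54, adjusted p = 0.101), without double-positive library 1 (log2 3.30, adjusted p = 0.089) and without double-positive library 2 (log2 2.81, adjusted p = 0.0947), and also when only the 6 libraries of these populations were fitted (log2 3.22, adjusted p = 0.0552). The double-positive against col9a2+ difference of 2.56 ± 0.73 did not pass the test (adjusted p = 0.0974), although these libraries did not overlap.

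Phospho1 (ENSDARG00000008403), the phosphatase that acts on the product of smpd3, had 263.2, 462.6 and 114.1 CPM in entpd5a+, 28.1, 12.1 and 44.8 CPM in double-positive and 6.64, 2.86 and 6.82 CPM in col9a2+ libraries. As for smpd3, no library of 1 population overlapped a library of the next, and entpd5a+ library 2 was the highest of all while double-positive library 2 was the lowest of its population. Means were 280.0 ± 175 CPM in entpd5a+, 28.3 ± 16.4 CPM in double-positive and 5.44 ± 2.24 CPM in col9a2+ cells. Phospho1 was 51.4-fold higher in entpd5a+ than in col9a2+ cells (log2 5.68 ± 0.73, adjusted p = 0.004, called without any single library). It was 9.88-fold higher in entpd5a+ than in double-positive cells (log2 3.30 ± 0.65, adjusted p = 0.0172). This second comparison lost its call without entpd5a+ library 2 (log2 2.74, adjusted p = 0.0552), double-positive library 1 (log2 3.30, adjusted p = 0.0535) or double-positive library 2 (log2 2.95, adjusted p = 0.0591). Between double-positive and col9a2+ cells the difference was 2.38 ± 0.63 and did not pass (adjusted p = 0.0752).

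The phospho1 to smpd3 ratio of counts was 0.775, 0.575 and 0.486 in entpd5a+, 0.517, 0.746 and 0.579 in double-positive and 0.447, 0.767 and 1.06 in col9a2+ libraries. The 3 ranges overlapped, and the widest was that of the col9a2+ libraries. The ratio was not tested.

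Phex (ENSDARG00000062363), an endopeptidase of the neprilysin family that sits on the surface of bone-forming cells, had 1505, 1965 and 1037 CPM in entpd5a+, 242.9, 63.6 and 159.6 CPM in double-positive and 63.9, 24.2 and 46.4 CPM in col9a2+ libraries. Every entpd5a+ library was above every other library, but double-positive library 2 lay just under col9a2+ library 1. Means were 1503 ± 464 CPM in entpd5a+, 155.3 ± 89.7 CPM in double-positive and 44.8 ± 19.9 CPM in col9a2+ cells. Phex was 33.5-fold higher in entpd5a+ than in col9a2+ cells (log2 5.07 ± 0.65, adjusted p = 0.004) and 9.67-fold higher in entpd5a+ than in double-positive cells (log2 3.27 ± 0.60, adjusted p = 0.0126), and both calls held with every single library left out. The double-positive against col9a2+ difference of 1.79 ± 0.57 did not pass (adjusted p = 0.132). Counts of phex relative to phospho1 were 5.72, 4.25 and 9.09 in entpd5a+, 8.64, 5.27 and 3.56 in double-positive and 9.62, 8.47 and 6.81 in col9a2+ libraries, again with overlapping ranges.

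Slc8a4b (ENSDARG00000037145), a sodium-calcium exchanger that moves calcium out of cells, was a low-level gene of the same pattern. It had 49.1, 67.8 and 22.6 CPM in entpd5a+, 9.17, 2.99 and 6.49 CPM in double-positive and 0.535, 0.596 and 1.26 CPM in col9a2+ libraries. No population overlapped another. Means were 46.5 ± 22.7 CPM in entpd5a+, 6.22 ± 3.10 CPM in double-positive and 0.797 ± 0.401 CPM in col9a2+ cells. Slc8a4b was 57.6-fold higher in entpd5a+ than in col9a2+ cells (log2 5.85 ± 0.67, adjusted p = 0.00257, called without any single library). It was 7.47-fold higher in entpd5a+ than in double-positive cells (log2 2.90 ± 0.58, adjusted p = 0.0179), a call lost without entpd5a+ library 2 (log2 2.53, adjusted p = 0.0678) or double-positive library 2 (log2 2.58, adjusted p = 0.0631). It was also 7.71-fold higher in double-positive than in col9a2+ cells (log2 2.95 ± 0.59, adjusted p = 0.0252), a call lost without double-positive library 1 (log2 2.56, adjusted p = 0.0667), col9a2+ library 1 (log2 2.72, adjusted p = 0.118) or col9a2+ library 2 (log2 2.78, adjusted p = 0.113), and when only the 6 libraries compared were fitted (log2 2.92, adjusted p = 0.0675).

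Slc8a4a (ENSDARG00000055154), the other exchanger copy, had 3, 65 and 4 counts in entpd5a+, 0 in each double-positive and 2, 4 and 93 counts in col9a2+ libraries. A single library held most of the counts in entpd5a+ cells, at 0.752 CPM in library 2, and in col9a2+ cells, at 1.06 CPM in library 3. A count of 0 in the double-positive libraries allows up to 0.0671, 0.078 and 0.0442 CPM in libraries 1, 2 and 3 (3 counts per library, counting error only). It was not tested, since it did not pass the count filter.

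The type III sodium-phosphate cotransporters take up phosphate from outside the cell, and both slc20a1 copies had their highest mean in double-positive cells, by different margins. The slc20a1 copy ENSDARG00000020114 had 101.5, 147.8 and 325.3 CPM in entpd5a+, 862.3, 1575 and 2220 CPM in double-positive and 43.8, 97.0 and 167.7 CPM in col9a2+ libraries. All double-positive libraries were above all others, and the entpd5a+ and col9a2+ libraries overlapped. Means were 191.5 ± 118 CPM in entpd5a+, 1552 ± 679 CPM in double-positive and 102.8 ± 62.2 CPM in col9a2+ cells. This copy was 15.1-fold higher in double-positive than in col9a2+ cells (log2 3.92 ± 0.69, adjusted p = 0.0146), a call lost without col9a2+ library 1 (log2 3.55, adjusted p = 0.0626) or col9a2+ library 2 (log2 3.88, adjusted p = 0.0728).

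Against double-positive cells, entpd5a+ cells held 8.11-fold less of the same copy (log2 -3.02 ± 0.66, adjusted p = 0.0257). This call was lost without entpd5a+ library 1 (log2 -2.71, adjusted p = 0.0657), entpd5a+ library 2 (log2 -2.86, adjusted p = 0.107), double-positive library 2 (log2 -3.01, adjusted p = 0.0682) or double-positive library 3 (log2 -2.67, adjusted p = 0.0544), and the fold change was -3.65 without entpd5a+ library 3. All of these values kept the direction. Between entpd5a+ and col9a2+ cells the copy differed by 0.90 ± 0.62 (adjusted p = 0.558), with a 95% interval of -0.48 to 2.28.

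The other copy, ENSDARG00000010641, had 113.9, 151.1 and 226.5 CPM in entpd5a+, 253.7, 472.9 and 478.9 CPM in double-positive and 208.8, 331.3 and 292.9 CPM in col9a2+ libraries. Means were 163.8 ± 57.4 CPM in entpd5a+, 401.8 ± 128 CPM in double-positive and 277.6 ± 62.6 CPM in col9a2+ cells. The entpd5a+ libraries were below all double-positive libraries, but the difference of -1.29 ± 0.41 did not pass the test (adjusted p = 0.0999, 95% interval -2.2 to -0.385). DESeq2 did call it (-1.21, adjusted p = 0.0248), as did edgeR with a replicate block in all 9 libraries (-1.29, adjusted p = 0.0281) and with a term for the deeper libraries (-1.45, adjusted p = 0.0332). Not called were entpd5a+ against col9a2+ cells (-0.76 ± 0.40, adjusted p = 0.4, 95% interval -1.66 to 0.14) and double-positive against col9a2+ cells (0.53 ± 0.40, adjusted p = 0.615, 95% interval -0.36 to 1.43). Whether reads common to both copies were split or dropped in counting was not tested.

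Slc20a2 (ENSDARG00000060796), the third transporter ID, differed least between populations of the 9 IDs tested. It had 103.3, 105.0 and 67.7 CPM in entpd5a+, 84.0, 124.5 and 65.0 CPM in double-positive and 73.5, 139.2 and 76.4 CPM in col9a2+ libraries. All populations overlapped, with means of 92.0 ± 21.1, 91.2 ± 30.4 and 96.4 ± 37.1 CPM for entpd5a+, double-positive and col9a2+ cells. Fitted differences were -0.07 ± 0.37 for entpd5a+ against col9a2+ (adjusted p = 0.961, 95% interval -0.90 to 0.77), -0.08 ± 0.37 for double-positive against col9a2+ (adjusted p = 0.968, 95% interval -0.92 to 0.76) and 0.01 ± 0.37 for entpd5a+ against double-positive (adjusted p = 0.991, 95% interval -0.82 to 0.85).

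The make-up of the transporter counts also differed by population. ENSDARG00000020114 took 31.8%, 36.6% and 52.5% of the counts of the 3 transporter IDs in entpd5a+, 71.9%, 72.5% and 80.3% in double-positive and 13.4%, 17.1% and 31.2% in col9a2+ libraries, with no overlap between populations. ENSDARG00000010641 took 35.7%, 37.4% and 36.6% in entpd5a+, 21.1%, 21.8% and 17.3% in double-positive and 64%, 58.4% and 54.5% in col9a2+ libraries. Summed over the 3 IDs, transporter CPM were 318.7, 404 and 619.5 in entpd5a+, 1200, 2172 and 2764 in double-positive and 326, 567.5 and 537 in col9a2+ libraries. The summed level of every double-positive library was above that of every other library, and entpd5a+ and col9a2+ libraries overlapped. In each population the share of ENSDARG00000020114 was highest in the library numbered 3, a deeper library in all 3 cases. These shares were not tested.

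**Figure D2:**
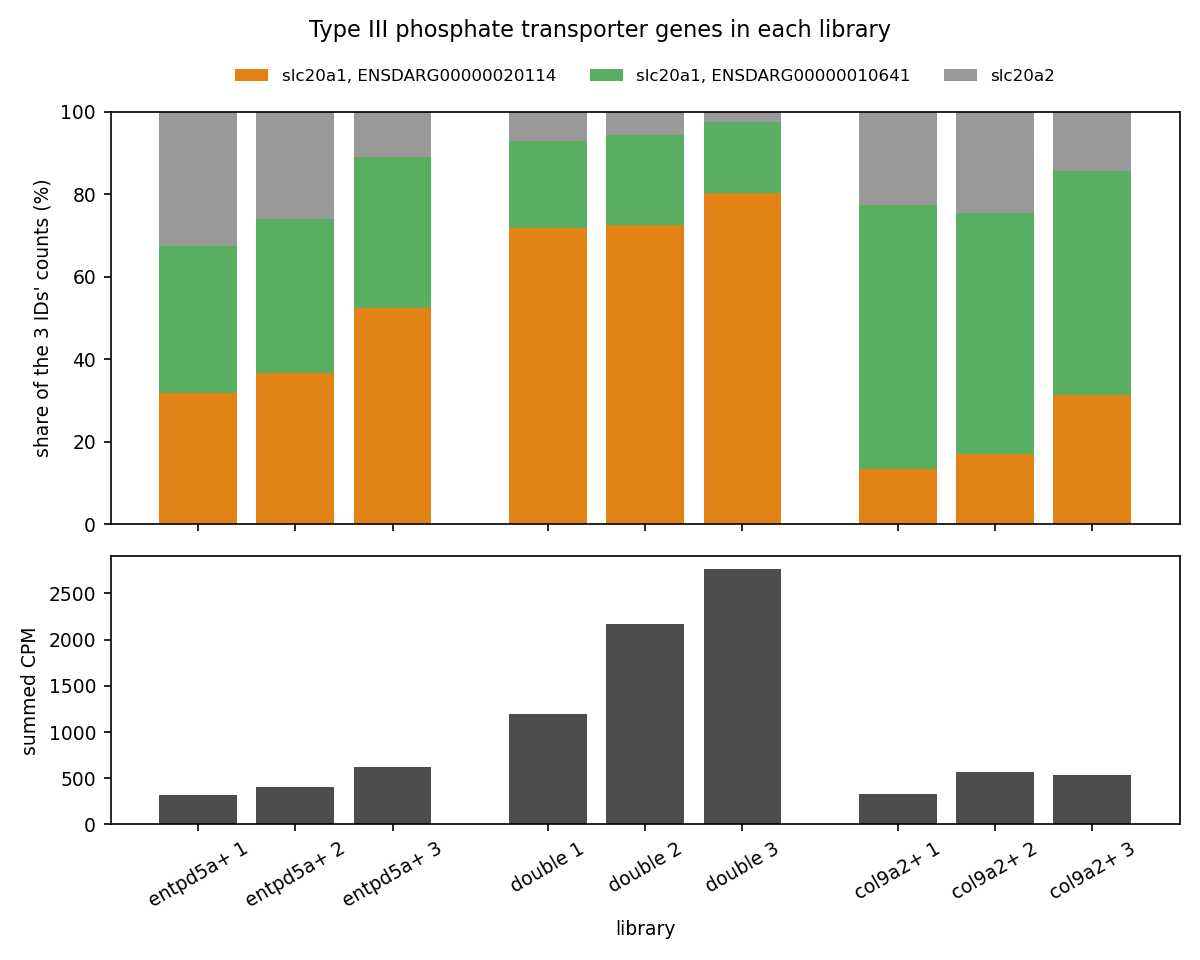
Share of the counts of the slc20a1 copies and slc20a2 (top, percent) and their summed CPM (bottom) in each of the 9 libraries. The copy ENSDARG00000020114 takes 71.9% to 80.3% in the double-positive libraries, and ENSDARG00000010641 takes 54.5% to 64% in the col9a2+ libraries.

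Stanniocalcin 1 is a secreted hormone that in fish lowers calcium uptake. The STC1 ID ENSDARG00000003303 was barely detected, with 2.03, 0.567 and 1.65 CPM in entpd5a+, 1.45, 0.104 and 0 CPM in double-positive and 1.29, 0.522 and 0.0801 CPM in col9a2+ libraries. The STC1 ID ENSDARG00000058476 had 0, 2.43 and 70.4 CPM in entpd5a+, 0, 48.2 and 102.9 CPM in double-positive and 1.52, 49.1 and 171.5 CPM in col9a2+ libraries. Its libraries differed more within a population than between populations, and in each population library 1 was the lowest and library 3 the highest. Total counts rose in the same order of libraries in double-positive and col9a2+ cells, whereas in entpd5a+ cells library 2, with 2.43 CPM, was the deepest. The part of depth in this order was not tested. Neither ID passed a test. For ENSDARG00000003303 the log2 differences were 1.17 (adjusted p = 0.822) in entpd5a+ against col9a2+, -0.27 (adjusted p = 0.976) in double-positive against col9a2+ and 1.44 (adjusted p = 0.719) in entpd5a+ against double-positive cells. For ENSDARG00000058476 they were -1.61 (adjusted p = 0.819), -0.56 (adjusted p = 0.962) and -1.05 (adjusted p = 0.861) in the same comparisons, and its 95% intervals reached from -6.69 to 3.48 in the first of them, so large differences were not detectable.

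Counted together, 4 of the 9 IDs tested were called higher in entpd5a+ than in col9a2+ cells and 0 lower, where 2.68% of all genes tested were called higher and 2.34% lower. Of these 9 IDs, 2 were called higher in double-positive than in col9a2+ cells and 0 lower, against 1.68% of all genes higher and 1.86% lower. In entpd5a+ against double-positive cells, 4 IDs were called higher and 1 lower, against 3.06% of all genes higher and 3.45% lower. The median log2 difference of the 9 IDs was 1.17, 1.79 and 1.44 in these 3 comparisons, and that of all genes tested 0.02, 0.01 and 0.07. The medians 1.17 and 1.44 were the values of the barely detected STC1 ID ENSDARG00000003303, and 1.79 was that of phex. None of these 3 differences was called, so the medians do not show a shift of the 9 IDs as a group. The comparisons share libraries, so their calls are not independent of each other. At an unadjusted p under 0.05, 0 IDs were lower in either comparison with col9a2+ cells, and DESeq2 called 0 lower there as well. DESeq2 called 5 IDs higher in double-positive than in col9a2+ cells, with phospho1 (log2 2.30, adjusted p = 0.00525), smpd3 (2.49, adjusted p = 0.00684) and phex (1.73, adjusted p = 0.0259) beside the 2 named. It also called more of all genes in that comparison, 2026 against 674 by edgeR, so the shares above do not apply to the 5. Of the 11 calls on these IDs, 5 held with any single library left out and 6 were lost without at least 1 library.

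Libraries of the double-positive and col9a2+ populations that carry the same number deviated together, and a fit with a replicate block was made for that comparison. Number 3 was the only deeper library with high hsp70l in both populations, so number and depth cannot be told apart there. In the 6 libraries of these populations with that block, a fit added after the data were seen, 4 IDs were called higher in double-positive cells: the slc20a1 copy ENSDARG00000020114 (log2 3.99, adjusted p = 6.96e-04), phex (1.67, adjusted p = 0.00316), phospho1 (2.26, adjusted p = 0.00477) and smpd3 (2.49, adjusted p = 0.0131). Over all genes that fit called 2228, where the fit of all 9 libraries without a block called 674. In that fit slc8a4b stood at 2.88 with an adjusted p that rounds to 0.05 and was not called. With the block in all 9 libraries, slc8a4b and ENSDARG00000020114 were the 2 IDs called, and 1024 genes were called over all those tested.

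The 4 deeper libraries with high hsp70l fell into all 3 populations. In the 5 shallower libraries alone, a fit added after the data were seen, entpd5a+ cells have 1 library, whose spread is taken from the other groups. There phospho1 (log2 5.77, adjusted p = 0.0429) and slc8a4b (6.42, adjusted p = 0.0422) were called in entpd5a+ against col9a2+ cells. Smpd3 (5.17, adjusted p = 0.109) and phex (5.08, adjusted p = 0.0951) were not called. The copy ENSDARG00000020114 was the 1 ID called in double-positive against col9a2+ cells (4.08, adjusted p = 0.019), and 0 IDs were called in entpd5a+ against double-positive cells by this edgeR fit, where 6 IDs had an unadjusted p under 0.05 and phospho1 had the lowest adjusted p of the 9 IDs (3.72, adjusted p = 0.0551).

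**Figure D3:**
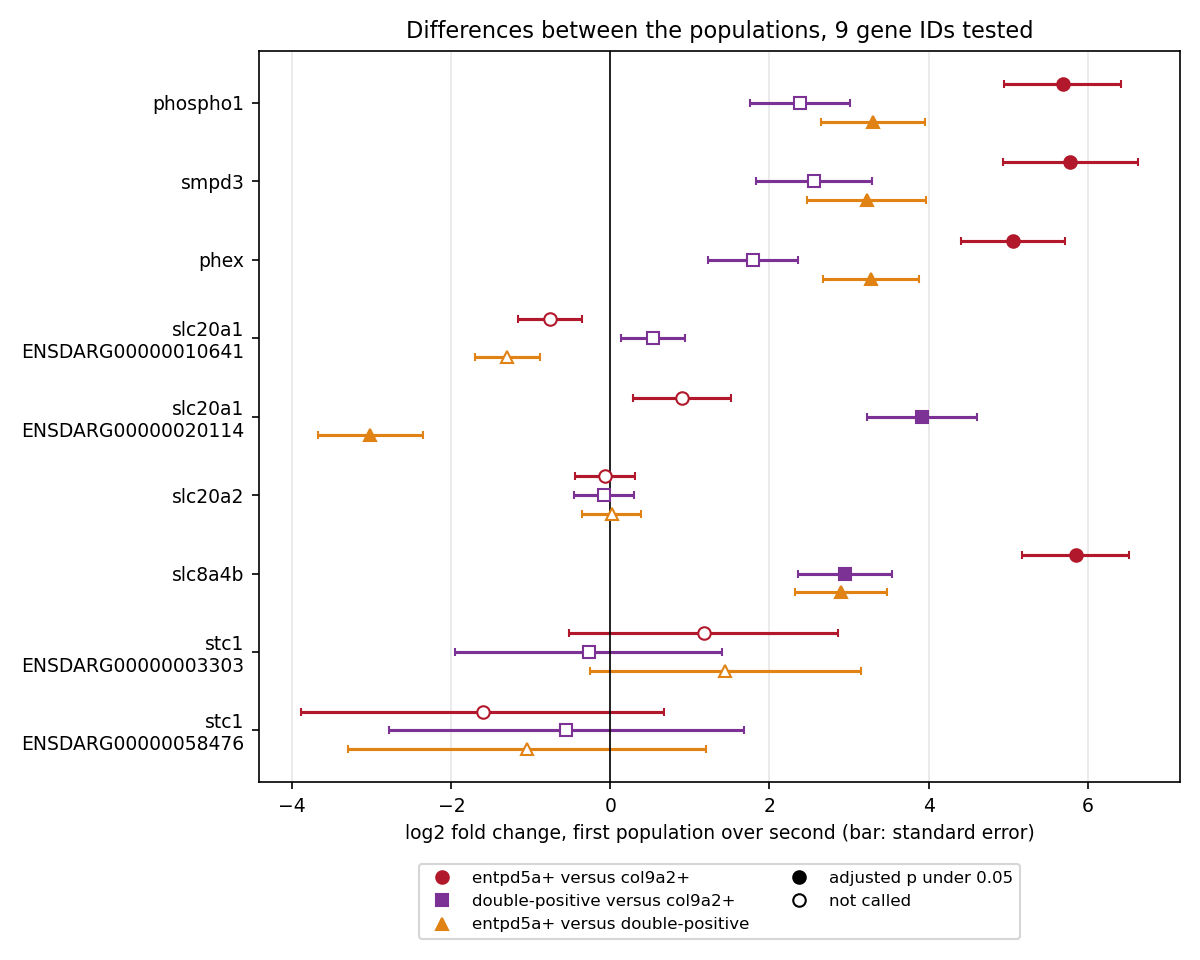
Log2 fold changes of the 9 gene IDs tested in the 3 comparisons (first population over second), with the standard error as bars and filled symbols for an adjusted p under 0.05. Smpd3, phospho1, phex and slc8a4b lie between 5.07 and 5.85 in entpd5a+ against col9a2+ cells, while the slc20a1 copy ENSDARG00000020114 is raised in double-positive against col9a2+ cells and lowered in entpd5a+ against double-positive cells.

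Most markers of bone-forming cells moved with the phosphate-releasing genes in entpd5a+ against col9a2+ cells. Of 16 osteoblast marker IDs, 15 were tested and 13 were called higher in entpd5a+ cells in that comparison, against 2.68% of all genes tested. In double-positive against col9a2+ cells 1 was called higher (1.68% of all genes), and in entpd5a+ against double-positive cells 6 were (3.06%). SPARC did not follow, at 13310, 9810 and 7429 CPM in entpd5a+, 8177, 10440 and 6018 CPM in double-positive and 10800, 17460 and 8228 CPM in col9a2+ libraries. The summed level of the 16 IDs was 156600, 211000 and 117700 CPM in entpd5a+, 45210, 18130 and 24600 CPM in double-positive and 22770, 22660 and 20130 CPM in col9a2+ libraries. The double-positive and col9a2+ sums overlapped. Entpd5a+ library 2 was the highest and library 3 the lowest of its population in this sum and in smpd3, phospho1, phex and slc8a4b, and double-positive library 2 was the lowest of its population in all of them. The bone transcription factor gene SP7 stood at 322.6, 199.1 and 76.8 CPM in entpd5a+, 43.9, 12.4 and 18.3 CPM in double-positive and 19.8, 5.02 and 2.45 CPM in col9a2+ libraries, and bglap, the osteocalcin gene, at no more than 0.225 CPM in any library. The part of osteoblast marker levels in the differences of the 4 genes was not tested.

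Tendon and fibroblast markers, 18 IDs that include the bone collagen gene col1a1a, also summed higher in entpd5a+ libraries, at 25280 to 52110 CPM, than in double-positive (1570 to 8307 CPM) and col9a2+ libraries (4035 to 6554 CPM). Col1a1a, which is on the osteoblast list too, made up 88.8% to 95.6% of these sums, and the other 17 IDs summed to 2141 to 2674 CPM in entpd5a+, 100.3 to 368.4 CPM in double-positive and 357.5 to 736.3 CPM in col9a2+ libraries. Of the 18, 6 were called higher and 0 lower in entpd5a+ against col9a2+ cells, against 2.68% and 2.34% of all genes tested. In entpd5a+ against double-positive cells 10 were called higher and 0 lower, against 3.06% and 3.45%. In double-positive against col9a2+ cells 0 were called higher and 1 lower, against 1.68% and 1.86%. Osteoclast markers, 9 IDs, summed to 605.7 to 1402 CPM in entpd5a+, 82.8 to 215.3 CPM in double-positive and 76.6 to 123.1 CPM in col9a2+ libraries, and in entpd5a+ libraries mostly from tnfrsf11a (469, 856.6 and 957.6 CPM) and NFATC1 (49.5, 111.5 and 271.3 CPM). In the same libraries CTSK stood at 54.3, 46.2 and 33.1 CPM and MMP9 at 31.8, 53.2 and 135.4 CPM, while ACP5, acp5b, csf1ra, ocstamp and CALCR stayed at or under 2.55 CPM in all 9 libraries. Notochord markers, 13 IDs, were the list that summed highest in double-positive cells, where ENSDARG00000020114 was highest. They stood at 6639 to 13910 CPM in entpd5a+, 29910 to 47810 CPM in double-positive and 9885 to 14250 CPM in col9a2+ libraries. Col8a1a (8508, 18070 and 19120 CPM) and krt18a.1 (11060, 14700 and 10590 CPM) made up most of the double-positive sums. Of 12 IDs tested, 4 were called higher and 0 lower in double-positive than in col9a2+ cells, against 1.68% and 1.86% of all genes. Epyc ran otherwise, at 411.2, 828.2 and 524.7 CPM in double-positive and 5862, 7654 and 3610 CPM in col9a2+ libraries. Of the same 12 notochord IDs, 2 were called higher and 5 lower in entpd5a+ than in col9a2+ cells, against 2.68% and 2.34%. In entpd5a+ against double-positive cells 1 was called higher and 6 lower, against 3.06% and 3.45%. Sums of chondrocyte markers, 14 IDs that include the sort gene COL9A2, ran the other way from smpd3, phospho1, phex and slc8a4b. They stood at 861.7 to 3421 CPM in entpd5a+, 7489 to 12770 CPM in double-positive and 58750 to 82960 CPM in col9a2+ libraries. Of the 14, 0 were called higher and 8 lower in entpd5a+ than in col9a2+ cells, against 2.68% and 2.34% of all genes. In entpd5a+ against double-positive cells 2 were called higher and 4 lower, against 3.06% and 3.45%. Snorc was highest in double-positive libraries (3391, 4965 and 2424 CPM), and MATN4 was lowest there (12.8, 6.71 and 25.5 CPM). Endothelial markers reached 327.8 CPM in double-positive library 1 and no more than 80.6 CPM elsewhere. Muscle markers reached 2153 CPM in entpd5a+ library 3 and no more than 661.3 CPM elsewhere. Of 11 epidermis markers, 5 were called lower in double-positive than in col9a2+ cells, against 1.86% of all genes tested. The sums of the 11 overlapped, at 8905 to 12180 CPM in double-positive and 9156 to 11800 CPM in col9a2+ libraries. The part of these lists in the results was not tested.

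Across the 9 libraries, which hold 3 points per population and thus share the population differences, log2 CPM of phospho1 correlated with that of smpd3 (Pearson r = 0.99), phex (r = 0.981) and slc8a4b (r = 0.977). The slc20a1 copies correlated with each other at r = 0.674. With the sort genes, smpd3, phospho1, phex and slc8a4b had r between -0.927 and -0.91 for COL9A2. For ENTPD5 their r was positive and smaller in size, from 0.471 for phex to 0.622 for slc8a4b, while ENSDARG00000020114 had r = 0.754 with ENTPD5. ENTPD5 counts were 21.6, 8.55 and 27.5 times those of phospho1 in entpd5a+, 369, 1550 and 292 times in double-positive and 38.1, 158 and 18.9 times in col9a2+ libraries, so the ratio was highest in the double-positive libraries.

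Among 7673 other named genes that averaged 10 CPM or more, those most like phospho1 in log2 CPM over the 9 libraries were tmem119a (r = 0.993), col5a2b (r = 0.99), PLTP (r = 0.989), lipcb (r = 0.982) and SOD3 (r = 0.981). Tmem119a had 358.4, 468 and 207.1 CPM in entpd5a+, 42.3, 13.9 and 44.0 CPM in double-positive and 9.76, 2.96 and 6.59 CPM in col9a2+ libraries, the same order of libraries as phospho1 in entpd5a+ cells. Tmem119a and col5a2b were also the closest to smpd3 (r = 0.993 and 0.99) and to phex (r = 0.994 and 0.995), and QPCT (r = 0.983) and SEMA4C (r = 0.982) were the closest to slc8a4b. Col5a2b is on the osteoblast list as well.

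The genes most like ENSDARG00000020114 were different ones: tinagl1 (r = 0.985), SPPL2B (r = 0.981) and, at r = 0.978 each, SLCO2A1, zbtb4 and SULF1. Tinagl1 had 5.61, 8.07 and 32.8 CPM in entpd5a+, 87.9, 147.3 and 140.0 CPM in double-positive and 2.93, 8.54 and 8.52 CPM in col9a2+ libraries. For ENSDARG00000010641 they were AVPR1A (r = 0.975) and FAM167B (r = 0.972), and for slc20a2 hlfa (r = 0.895) and GGCX (r = 0.872). The STC1 ID ENSDARG00000003303 was most like pgam1a (r = 0.934) and myl6 (r = 0.929), and ENSDARG00000058476 was like HERPUD2 (r = 0.967).

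The wider set of phosphate, calcium and mineral genes, 124 IDs in 7 lists of which 102 were tested, had 13 called higher and 4 lower in entpd5a+ than in col9a2+ cells, 4 higher and 2 lower in double-positive than in col9a2+ cells, and 12 higher and 6 lower in entpd5a+ cells than in double-positive cells. Over all genes tested, 2.68% were called higher and 2.34% lower in the first comparison, 1.68% and 1.86% in the second, and 3.06% and 3.45% in the third. The same shares apply to each single list below, for calls of this edgeR fit only. DESeq2 called 2162, 2026 and 2874 of the 19039 genes in these 3 comparisons, where this fit called 955, 674 and 1240. The median log2 differences of the 102 were 0.75, 0.17 and 0.79. In a fit of the 6 double-positive and col9a2+ libraries with a replicate block, 25 were called in that comparison in place of 6. Genes called over all those tested rose there as well, to 2228 from 674, so the shares above do not apply to the 25. Of the 41 calls, 17 held with any single library left out and 24 were lost without at least 1.

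Among 22 genes around phosphocholine release, 1 was called higher and 1 lower in entpd5a+ than in col9a2+ cells, against 2.68% and 2.34% of all genes. SGMS2, the sphingomyelin synthase that makes the substrate of smpd3, had 1327, 1521 and 934.3 CPM in entpd5a+, 253.9, 47.5 and 125.5 CPM in double-positive and 62.7, 16.9 and 22.5 CPM in col9a2+ libraries, with no overlap between entpd5a+ and the rest. It was higher in entpd5a+ than in col9a2+ cells (5.21 ± 0.78, adjusted p = 0.00632, and 6.0 without col9a2+ library 1) and than in double-positive cells (3.15 ± 0.71, adjusted p = 0.0292, and 3.86 without double-positive library 1). The second of these calls was lost without entpd5a+ library 2, double-positive library 2 or double-positive library 3 (adjusted p = 0.0784 to 0.0814).

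ENPP6, a choline-specific phosphodiesterase, had 12.1, 6.58 and 9.50 CPM in entpd5a+, 0, 0.156 and 0.147 CPM in double-positive and 3.36, 1.52 and 5.97 CPM in col9a2+ libraries, so it was lowest in the middle population. It was called lower in double-positive than in col9a2+ cells (-5.12 ± 1.03, adjusted p = 0.0254) and higher in entpd5a+ than in double-positive cells (6.49 ± 1.09, adjusted p = 0.00934). The first call was lost without double-positive library 2 or 3 or col9a2+ library 1 or 3 (adjusted p = 0.0528 to 0.0714). The lipid phosphatase gene PLPP2 (ENSDARG00000002231) ran opposite to ENPP6, with 2.82, 1.94 and 3.01 CPM in entpd5a+, 45.7, 71.4 and 29.1 CPM in double-positive and 5.76, 21.4 and 11.4 CPM in col9a2+ libraries. It was lower in entpd5a+ cells than in double-positive cells (-4.24 ± 0.57, adjusted p = 0.00417) and than in col9a2+ cells (-2.31 ± 0.53, adjusted p = 0.0354), the second call being lost without any 1 of the entpd5a+ libraries or col9a2+ library 2 or 3 (adjusted p = 0.0691 to 0.149, log2 -1.73 without col9a2+ library 2).

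Among 19 tested phosphatase and pyrophosphate genes, 2 were higher and 1 lower in entpd5a+ than in col9a2+ cells, 2 were higher in double-positive than in col9a2+ cells, and 3 were higher and 2 lower in entpd5a+ cells than in double-positive cells. Alpi.1, an alkaline phosphatase gene, was called in all 3 comparisons, with 336.1, 260.5 and 248.8 CPM in entpd5a+, 80.3, 35.3 and 66.3 CPM in double-positive and 18.5, 9.98 and 13.1 CPM in col9a2+ libraries. Its log2 differences were 4.35 ± 0.43 in entpd5a+ against col9a2+ (adjusted p = 0.00177), 2.22 ± 0.39 in entpd5a+ against double-positive (adjusted p = 0.0115) and 2.13 ± 0.39 in double-positive against col9a2+ cells (adjusted p = 0.0178). The last call was lost without double-positive library 1 or col9a2+ library 2 or 3 (adjusted p = 0.056 to 0.0877).

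NT5E, which takes phosphate off AMP outside the cell, was high in entpd5a+ cells alone, with 109.1, 96.9 and 118.7 CPM in entpd5a+, 24.4, 7.52 and 12.4 CPM in double-positive and 11.2, 15.2 and 10.6 CPM in col9a2+ libraries (3.14 ± 0.44 against col9a2+, adjusted p = 0.00493, and 2.88 ± 0.43 against double-positive cells, adjusted p = 0.00658). SLC29A1 (ENSDARG00000054447), a nucleoside transporter, had less RNA in entpd5a+ than in col9a2+ cells (-3.99 ± 0.53, adjusted p = 0.00419) and in double-positive cells (-4.89 ± 0.55, adjusted p = 0.00326). These 4 calls held with any single library left out.

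Enpp1, the enzyme that makes the mineralization inhibitor pyrophosphate, shared the double-positive peak of ENSDARG00000020114, with 219.1, 518.6 and 426.8 CPM in entpd5a+, 924.2, 1381 and 1747 CPM in double-positive and 138.5, 224.8 and 201.8 CPM in col9a2+ libraries. It was higher in double-positive than in col9a2+ cells (2.84 ± 0.47, adjusted p = 0.0115, lost without col9a2+ library 1, adjusted p = 0.069) and lower in entpd5a+ cells than in double-positive cells (-1.80 ± 0.45, adjusted p = 0.0451). The second call was lost without any 1 of the 9 libraries (adjusted p = 0.0535 to 0.119). ANKH (ENSDARG00000014969), a membrane protein of pyrophosphate export, was higher in entpd5a+ than in double-positive cells (2.49 ± 0.62, adjusted p = 0.0422), a call lost without any 1 of 7 libraries, all but entpd5a+ library 1 and col9a2+ library 3 (adjusted p = 0.0522 to 0.125).

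Of 8 other phosphate transport genes tested, 1 was called in entpd5a+ against col9a2+ cells and 1 in entpd5a+ against double-positive cells, where the median log2 difference of the 8 was 0.83 and DESeq2 called 2 higher and 1 lower. SLC34A1 (ENSDARG00000028824), a type II phosphate cotransporter, was low throughout, at 0.721, 0.914 and 1.65 CPM in entpd5a+, 2.86, 6.30 and 3.73 CPM in double-positive and 3.90, 8.92 and 8.36 CPM in col9a2+ libraries, and was lower in entpd5a+ than in col9a2+ cells (-2.68 ± 0.62, adjusted p = 0.0375). This call was lost without any 1 of 7 libraries, all but double-positive library 1 and col9a2+ library 1 (adjusted p = 0.0503 to 0.166). XPR1 (ENSDARG00000062449), a phosphate exporter, was also low, at 1.55, 2.69 and 2.79 CPM in entpd5a+, 0, 0 and 0.0147 CPM in double-positive and 0.08565, 0.199 and 0.664 CPM in col9a2+ libraries. It had 486 counts over the entpd5a+ libraries and 1 count over the double-positive libraries. That is a ratio of 373 per library size, with an exact 95% interval of 66.6 to 14800 for counting error only. The edgeR difference was 8.17 ± 1.59 (adjusted p = 0.0155), a call lost without entpd5a+ library 2 (adjusted p = 0.0568) or double-positive library 2 (adjusted p = 0.0673). Of the 5 neprilysin family genes other than phex, the edgeR fit of all 9 libraries called 0 in any of the 3 comparisons. At an unadjusted p under 0.05 it had 1 in each comparison with col9a2+ and 2 in entpd5a+ against double-positive cells. Median log2 differences of the 5 were 1.57 in entpd5a+ against col9a2+, 0.974 in double-positive against col9a2+ and 3.3 in entpd5a+ against double-positive cells. DESeq2 called 1, 0 and 1 in these comparisons. In the edgeR fit of the 5 shallower libraries the counts were 0, 1 (adjusted p = 0.0496) and 1 (adjusted p = 0.0377).

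The list of phosphate and calcium hormones, receptors and related enzymes and kinases held 19 tested genes. Of these, 7 were called higher in entpd5a+ than in col9a2+ cells. The fibroblast growth factor receptor gene FGFR1 (ENSDARG00000011027) had 94.4, 168 and 75.2 CPM in entpd5a+, 45.8, 36.8 and 34.2 CPM in double-positive and 19.3, 26.2 and 18.5 CPM in col9a2+ libraries (2.40 ± 0.36 against col9a2+ cells, adjusted p = 0.00656). PTH1R, the parathyroid hormone receptor, differed by 3.30 ± 0.54 (adjusted p = 0.00867) and FAM20A, a partner of the secretory kinase FAM20C, by 3.90 ± 0.67 (adjusted p = 0.0107). FURIN (ENSDARG00000070971), a proprotein-cleaving enzyme, differed by 1.92 ± 0.37 (adjusted p = 0.0178), lost without entpd5a+ library 2 or any 1 of the col9a2+ libraries (adjusted p = 0.0547 to 0.0917). The first 3 of these held with any single library left out.

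STC2 (ENSDARG00000056680), the relative of stanniocalcin 1, was singled out for that after its values were seen. It had 523.1, 233.1 and 87.0 CPM in entpd5a+, 165.4, 159.5 and 167.4 CPM in double-positive and 43.3, 50.8 and 33.2 CPM in col9a2+ libraries. Entpd5a+ and col9a2+ libraries did not overlap (2.73 ± 0.57, adjusted p = 0.0248). The call was lost without entpd5a+ library 2 or any 1 of the col9a2+ libraries (adjusted p = 0.0592 to 0.102), and the value was 1.92 without entpd5a+ library 1. In entpd5a+ against double-positive cells 4 of the 19 genes were called higher: PTH1R (2.55 ± 0.52, adjusted p = 0.0195), FAM20A (3.05 ± 0.64, adjusted p = 0.0222), FGFR1 (1.53 ± 0.35, adjusted p = 0.0318) and PAPPA (ENSDARG00000101090), a protease that stanniocalcins inhibit. PAPPA had 2.39, 6.49 and 3.67 CPM in entpd5a+, 0, 0.156 and 0.0147 CPM in double-positive and 2.01, 0.422 and 3.14 CPM in col9a2+ libraries (6.23 ± 1.44 for entpd5a+ against double-positive, adjusted p = 0.0325, and 8.65 without double-positive library 2). Each of the 4 calls was lost without entpd5a+ library 2 and at least 2 more libraries. PTH1R was also lost without double-positive library 2 or 3, FAM20A without entpd5a+ library 3 or double-positive library 1 or 2, FGFR1 without any 1 of the double-positive libraries or col9a2+ library 1 or 2, and PAPPA without entpd5a+ library 3, double-positive library 1 or 3 or col9a2+ library 1 (adjusted p at most 0.119). In double-positive against col9a2+ cells 1 was called, which was FURIN (1.76 ± 0.37, adjusted p = 0.0317, lost without double-positive library 1 or 3 or any 1 of the col9a2+ libraries, adjusted p = 0.0856 to 0.126).

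Of 16 tested calcium exchange genes other than slc8a4a and slc8a4b, edgeR called 0 in entpd5a+ against col9a2+ cells, where 1 had an unadjusted p under 0.05 and DESeq2 called 1. The plasma membrane calcium pump gene atp2b4 had 115, 97.1 and 75 CPM in entpd5a+, 253.7, 250.4 and 188.2 CPM in double-positive and 85.3, 96.6 and 57.0 CPM in col9a2+ libraries, with all double-positive libraries above the rest. It was higher in double-positive than in col9a2+ cells (1.54 ± 0.33, adjusted p = 0.0328) and lower in entpd5a+ cells than in double-positive cells (-1.27 ± 0.33, adjusted p = 0.0478). Atp2b3b, another pump gene, had 9.86, 9.59 and 5.46 CPM in entpd5a+, 0, 0.182 and 0.206 CPM in double-positive and 0.771, 0.174 and 0.298 CPM in col9a2+ libraries. It was called higher in entpd5a+ than in double-positive cells (5.97 ± 1.21, adjusted p = 0.0185), a call lost without entpd5a+ library 2 or double-positive library 2 (adjusted p = 0.0646 to 0.0651). For atp2b4 the first call was lost without any 1 of 6 libraries, all but entpd5a+ libraries 1 and 3 and double-positive library 3 (adjusted p = 0.0595 to 0.13), and the second without any 1 of the 9 (adjusted p = 0.0533 to 0.151).

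Of 13 tested genes for mineral-binding matrix proteins, 3 were higher and 1 lower in entpd5a+ than in col9a2+ cells. Scpp1, a secretory calcium-binding phosphoprotein, had 698.9, 762.7 and 791.6 CPM in entpd5a+, 125.5, 38.4 and 77.7 CPM in double-positive and 30.7, 9.96 and 21.8 CPM in col9a2+ libraries. It was higher in entpd5a+ than in col9a2+ cells (5.17 ± 0.60, adjusted p = 0.00269) and than in double-positive cells (3.22 ± 0.55, adjusted p = 0.0102). Spp1 or osteopontin, known in mammals as a substrate of PHEX, had 1740, 2376 and 2974 CPM in entpd5a+, 559.2, 78.8 and 276.7 CPM in double-positive and 116.8, 19.8 and 59.8 CPM in col9a2+ libraries (5.17 ± 0.89 for entpd5a+ against col9a2+, adjusted p = 0.0108, and 5.89 without col9a2+ library 1). Enam, named after enamelin, differed by 5.05 ± 0.93 (adjusted p = 0.0144), was at 6.01 without col9a2+ library 1 and lost its call without col9a2+ library 2 or 3 (adjusted p = 0.0735 and 0.0595).

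Chondroadherin (chad), a cartilage matrix protein, ran the other way, with 159.3, 113.2 and 160.8 CPM in entpd5a+, 1113, 1628 and 1465 CPM in double-positive and 2814, 4664 and 3283 CPM in col9a2+ libraries (-4.63 ± 0.47 for entpd5a+ against col9a2+, adjusted p = 0.00177, and -3.28 ± 0.44 against double-positive cells, adjusted p = 0.00404). MATN1, which codes for the cartilage protein matrilin 1, had 247.1, 13.3 and 11.4 CPM in entpd5a+, 26.0, 1.82 and 2.93 CPM in double-positive and 2179, 1599 and 781.5 CPM in col9a2+ libraries, with library 1 high in both of the first populations. It was lower in double-positive than in col9a2+ cells (-7.21 ± 1.64, adjusted p = 0.0437), at -9.31 without double-positive library 1, and lost its call without double-positive library 2 or 3 or any 1 of the col9a2+ libraries (adjusted p = 0.0715 to 0.119). Mgp, a matrix protein that inhibits calcification, peaked in double-positive cells with 107.9, 60.2 and 104.4 CPM in entpd5a+, 1027, 1545 and 504.7 CPM in double-positive and 286.8, 207.5 and 80.0 CPM in col9a2+ libraries. It was lower in entpd5a+ cells than in double-positive cells (-3.50 ± 0.61, adjusted p = 0.011, lost without entpd5a+ library 2, adjusted p = 0.0517).

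**Figure D4:**
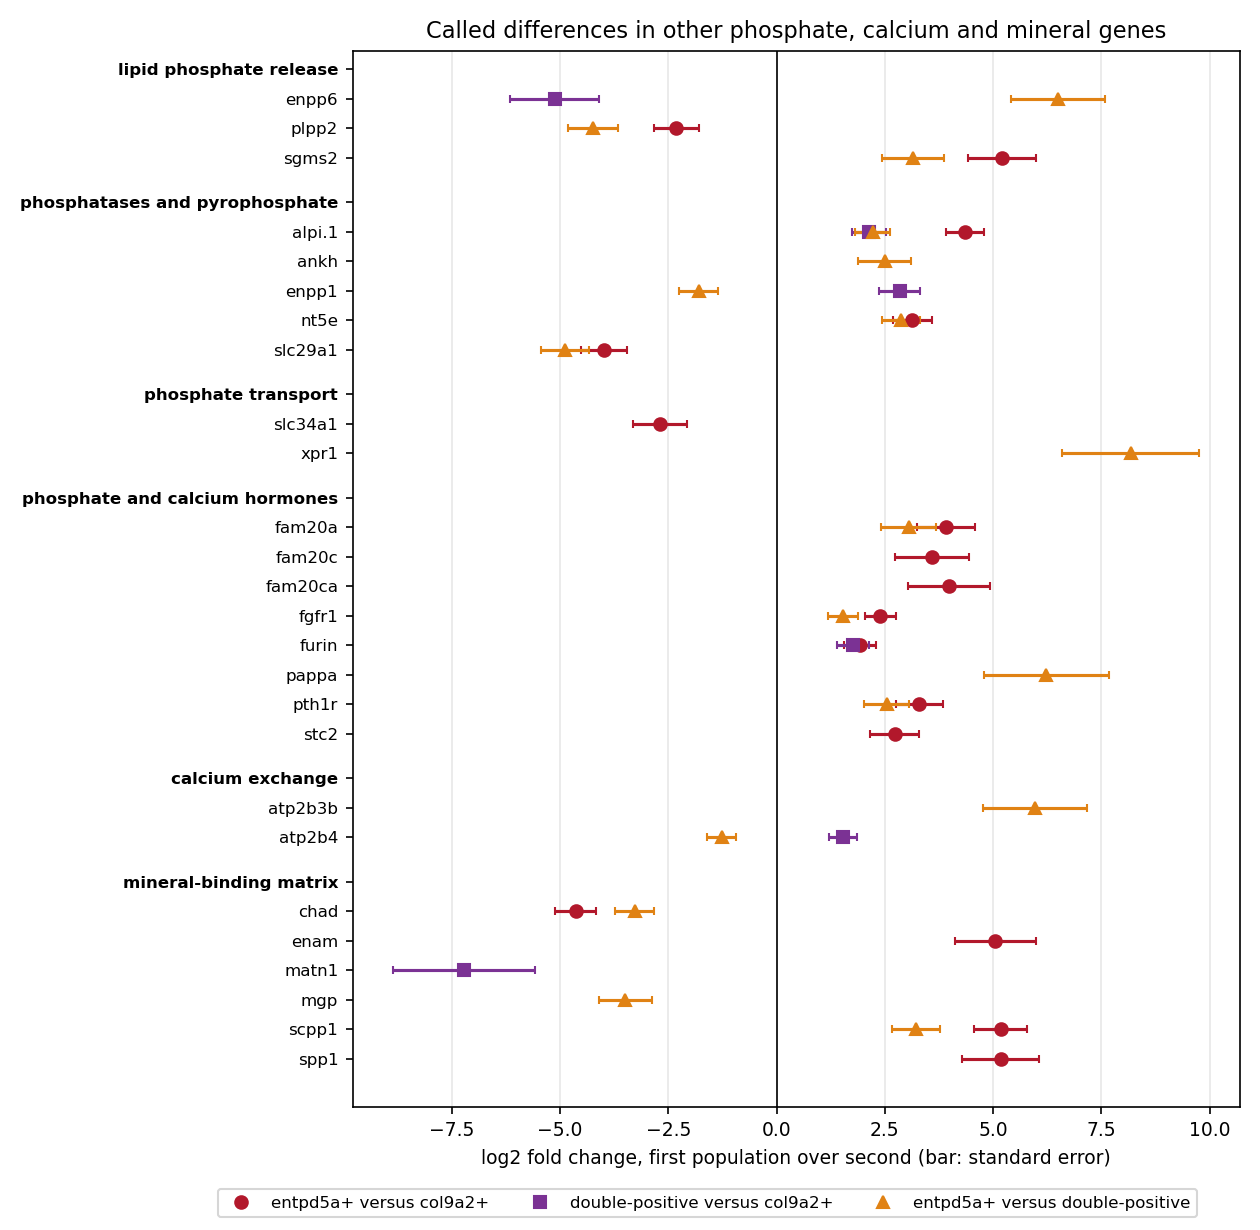
Log2 fold changes (first population over second, standard error as bars) of the genes called among the other phosphate, calcium and mineral lists, with a symbol for each comparison in which the gene was called. SGMS2, alpi.1 and scpp1 lie to the right in entpd5a+ cells, and chad, PLPP2 and SLC29A1 to the left.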

How the data were processed

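RNA from sorted cells was made into ultra-low-input cDNA libraries and sequenced, per the labels' protocols. Each library's deposited file lists whole-number counts of reads by Ensembl ID, which the authors made with HISAT2 and HTSeq on GRCz10, per the submitters' processing notes; versions and strand setting are not given in the sources used here. Amplified reads are not independent molecules. Genes were kept by filterByExpr, scaled with TMM factors and tested two-sided in R 4.3.3 with edgeR 4.0.16 (quasi-likelihood, robust dispersion, 3 populations in 1 fit, Benjamini-Hochberg adjustment over all genes). Log2 CPM used a prior count of 2. The test was also tried on simulated counts drawn independently for each library, and no result here rests on that. The members and lists were chosen with earlier results of these data known. Text names every member, the sort genes, called list genes (up to 4 per list and comparison by adjusted p, of which those not described are in the plot of the lists) and the most correlated genes (5 or 2 per member, mean of at least 10 CPM; 1 is not reported here). Of the list entries, 123 were found in the name table as spelled, 76 once case was ignored, 77 without the paralog letter and 22 not at all.

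Same-numbered double-positive and col9a2+ libraries deviated together (r = 0.181, 0.219 and 0.332 across genes for numbers 1, 2 and 3). For entpd5a+ libraries r was 0.205, -0.106 and 0.198 with col9a2+ and 0.13, -0.103 and 0.148 with double-positive, so not every number paired them. Deeper libraries of unlike number also deviated together, at r = 0.234 for entpd5a+ 2 with col9a2+ 3 and 0.201 with double-positive 3. Shallower double-positive and col9a2+ libraries of unlike number did not (r = -0.00492 and -0.000924). The fits were repeated with upper-quartile or RLE factors, without the filter, with a mean of at least 10 CPM, DESeq2 1.42.0, the 6 libraries compared, each library left out, a replicate block and a term for the deeper libraries. Repeats in the 5 shallower libraries and with the block in 6 libraries were added after seeing the data.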

Additional observations from a re-analysis of the deposited data

How the results depend on the processing

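Over 510 repeats of the fits of single members, 455 kept direction and call, 30 lost the call, 9 gained it and 16 changed sign, the last only in uncalled differences. RLE or upper-quartile factors, no filter and a mean of at least 10 CPM changed none of the numbers of members called. In entpd5a+ against col9a2+, 4 members were called with any 1 library left out and 2 in the 5 shallower libraries; genes called were 955, against 2162 with DESeq2, 202 in the 5 shallower libraries and 353 to 994 with a library left out. In double-positive against col9a2+, members called were 2, against 5 with DESeq2, 1 in the 6 libraries compared, 1 in the 5 shallower libraries, 4 with the replicate block in those 6 libraries and 0 to 2 with a library left out. Genes called there were 674, against 2026 with DESeq2, 1024 with the replicate block in all 9 libraries, 2228 with it in 6, 1314 with the depth term and 242 to 787 with a library left out. In entpd5a+ against double-positive, not every number paired the libraries. Members called there were 5, against 6 with DESeq2, with the depth term and with the replicate block in all 9 libraries, 4 in the 6 libraries compared, 3 with the replicate block in those 6, 0 in the 5 shallower libraries and 1 to 5 with a library left out. Genes called there were 1240, against 2874 with DESeq2, 758 in the 6 libraries compared, 455 in the 5 shallower libraries and 525 to 1064 with a library left out. Of the other lists, 17, 6 and 18 genes were called in entpd5a+ against col9a2+, double-positive against col9a2+ and entpd5a+ against double-positive; DESeq2 called 27, 22 and 33, the 5 shallower libraries 3, 6 and 4, and fits with a library left out 11 to 20, 1 to 9 and 7 to 16. For double-positive against col9a2+ the list count was 10 in the 6 libraries compared, 16 with the depth term and 11 with the replicate block in all 9 libraries. The causes were not tested, although fewer libraries were fitted where libraries were left out.

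Slc20a2 changed sign in entpd5a+ against col9a2+ (0.11 with the depth term, -0.23 to 0.30 with a library left out), double-positive against col9a2+ (-0.38 to 0.29) and entpd5a+ against double-positive (-0.0076 in the 6 libraries compared, -0.18 to 0.31 with a library left out). So did STC1 ENSDARG00000003303 (-3.63 to 0.78) and ENSDARG00000058476 (-1.62 to 0.99) in double-positive against col9a2+, and ENSDARG00000058476 in entpd5a+ against double-positive (-5.32 to 0.0098). The correlations of the named like genes moved by less than 0.05 with a prior count of 0.5. The promoter motif alternative was not run, since no promoter sequence was used here. A gene with 3 counts in a library lies between 0.0343 and 0.078 CPM, which limits slc8a4a and STC1 ENSDARG00000003303.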
